A study of Mus musculus with 24 samples.

Results

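The serotonin and melatonin enzymes were examined as 8 listed genes, which cover synthesis (Tph1, Ddc, Aanat), cofactor supply (Gch1, Qdpr), methyl supply (Mat2a) and breakdown (Maoa, Maob). Their probe sets were taken by gene symbol alone, but the genes were listed with earlier results of these data known. The platform annotation named 11 probe sets for 7 of them, of 18193 genes that had a probe set with a single symbol. It named none for Mat2a, which is not analysed here. Tph1, Aanat and Maob had 1 probe set each, and Ddc, Gch1, Qdpr and Maoa had 2 each. The values of a gene are those of its brightest probe set unless another is named, except that for Qdpr the brighter set, marked as cross-hybridising (_x_at), was not used.

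RNA of pineal glands and retinas was measured on 24 Affymetrix Mouse 430 2.0 arrays, 3 in each of 8 groups. The groups were pineal glands of cKO mice at ZT20 and ZT6, pineal glands of control mice at ZT20 and ZT6, and the same 4 groups of retinas. ZT counts hours from lights on in a cycle of 12 h of light and 12 h of darkness, so ZT6 lies in the day and ZT20 in the night; night tissue was taken under dim red light. All mice carried floxed NeuroD1 alleles on both chromosomes, were 2 months old, of either sex, and C57BL/6J. The cKO mice also carried 1 copy of a Crx-Cre transgene, whose promoter is active in photoreceptors and pinealocytes, and the control mice carried no Cre. Each array held RNA of a pool of 6 glands or 6 retinas, so a value is an average over the animals and cell types of that pool. Neurod1 encodes a basic helix-loop-helix transcription factor of photoreceptors and pinealocytes, and the study asked what its loss does to gene expression in these tissues.

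Pinealocytes take up tryptophan, hydroxylate it with tryptophan hydroxylase (Tph1) and decarboxylate the product to serotonin with aromatic amino acid decarboxylase (Ddc). At night arylalkylamine N-acetyltransferase (Aanat) acetylates serotonin, and a methyl group from S-adenosylmethionine completes melatonin. In rodents the night rise of Aanat mRNA follows noradrenaline release from sympathetic fibres and cAMP signalling. C57BL/6J mice carry an Aanat mutation and make little melatonin, so the measurements here are of mRNA and not of the hormone. Hydroxylation needs tetrahydrobiopterin, whose first synthetic enzyme is GTP cyclohydrolase (Gch1) and which dihydropteridine reductase (Qdpr) regenerates. The monoamine oxidases (Maoa, Maob) deaminate serotonin and other amines.

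The promoters of Tph1 and Gch1 are shown because these genes gave a steady and a night-lowered signal in the pineal gland. Each is the 250 bases before an annotated RefSeq transcription start in GRCm38.p6, read 5′ to 3′ on the gene's own strand. Tph1 has 2 such starts, at chr7:46667378-46667627 (minus strand, called start A) and chr7:46672538-46672787 (minus strand, called start B), and Gch1 has 1, at chr14:47189414-47189663 (minus strand). Capitals mark TGACG or its reverse complement, the half-site of the cAMP response element.
Tph1 start A: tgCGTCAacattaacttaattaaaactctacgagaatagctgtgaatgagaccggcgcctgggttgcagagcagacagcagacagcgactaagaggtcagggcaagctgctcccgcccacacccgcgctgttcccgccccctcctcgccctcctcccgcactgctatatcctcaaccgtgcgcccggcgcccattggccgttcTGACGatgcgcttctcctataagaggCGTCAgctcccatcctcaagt
Tph1 start B: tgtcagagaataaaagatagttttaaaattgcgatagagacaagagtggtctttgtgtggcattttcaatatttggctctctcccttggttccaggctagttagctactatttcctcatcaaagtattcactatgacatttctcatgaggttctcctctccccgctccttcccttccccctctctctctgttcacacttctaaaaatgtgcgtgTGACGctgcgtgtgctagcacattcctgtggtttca
Gch1: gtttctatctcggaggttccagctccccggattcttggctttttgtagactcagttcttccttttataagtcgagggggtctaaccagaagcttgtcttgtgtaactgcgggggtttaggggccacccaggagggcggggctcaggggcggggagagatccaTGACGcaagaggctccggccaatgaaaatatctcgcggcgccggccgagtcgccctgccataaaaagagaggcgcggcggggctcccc
Start A of Tph1 held 3 matches, whose first bases lay 248, 47 and 21 bases before the start. Start B held 1, beginning 36 bases before it, and Gch1 held 1, beginning 88 bases before it. TGACG occurred on either strand in 17.7% of 32817 RefSeq windows of the same length. The longer form TGACGT (6.5% of windows), the E-box CANNTG (66.2%), its form CACGTG (6.0%) and the homeobox motif TAATCC (6.3%) were searched on both strands too, and none of them was found in these 3 windows. The 2 Ddc windows, ending at annotated starts on chromosome 11, held none of the 5 motifs. CANNTG was present in the windows of Qdpr and Maoa, and TGACG also in that of Maoa. CACGTG overlaps CANNTG, and TGACG is part of TGACGT. A match is a description of these letters only.

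Neurod1 itself was read first as a check of the labels. In the pineal gland its signal was 22.5, 1897 and 960 in cKO pools at ZT20 and 83.5, 29.1 and 30.9 in cKO pools at ZT6, against 3156 to 4323 in control pools at ZT20 and 4647 to 5268 in control pools at ZT6. In the retina cKO pools spanned 369 to 3595 at ZT20 and 293 to 774 at ZT6, against 6698 to 7617 at ZT20 and 5701 to 6967 at ZT6 in control pools. All cKO pools lay below all control pools of their tissue, but pools 2 and 3 of the cKO groups at ZT20 kept a sizeable signal. The median signal of an array lay between 107.1 and 158.8 for glands and between 107.8 and 183.1 for retinas, so arrays were not on a common scale. The fits used the values as deposited, and results that another scaling changes are named with the result or in the accounts of scaling further down. Fewer cells of a type and less RNA per cell cannot be told apart in such pooled tissue, and nothing in the labels says which pools shared a day of collection.

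**Figure D1:**
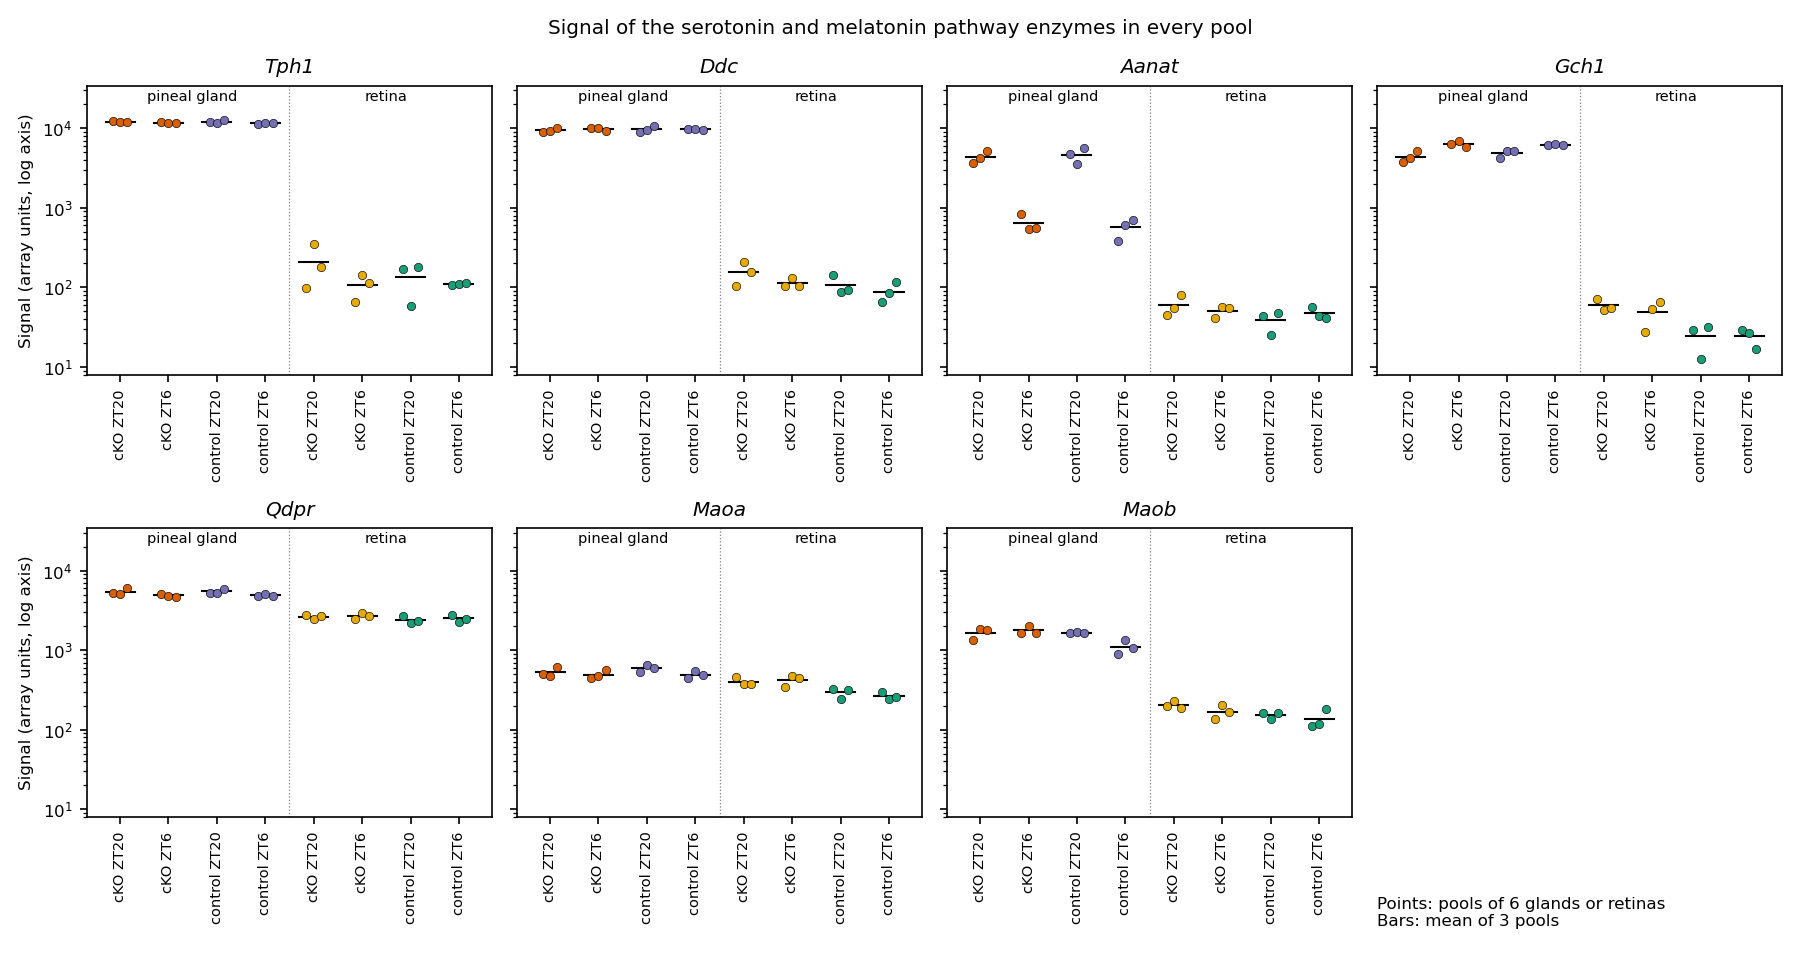
Signal of the 7 enzymes measured, in array units on a log axis, by group. Points are pools of 6 glands or retinas and bars are means of 3 pools; Aanat at ZT20 stands above Aanat at ZT6 in the pineal gland of both genotypes, while Tph1 and Ddc are level there, and Tph1, Ddc, Aanat and Gch1 are far lower in the retina.

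Tph1 signal in the pineal gland was high and nearly level across the groups. It read 12169, 12071 and 12069.5 in cKO pools at ZT20, 12033, 11606 and 11545 in cKO pools at ZT6, 12104, 11722 and 12566 in control pools at ZT20, and 11349.5, 11770.1 and 11543 in control pools at ZT6. The cKO and control pools overlapped at both times. In cKO glands the night pools lay above the day pools without overlap, with a mean 1.03-fold higher. There 23.4% of genes tested separated in either direction. The log2 difference between cKO and control, on log2(signal + 16), was 0.02 ± 0.06 at ZT6 and 0.00 ± 0.06 at ZT20 (SE from the limma fit, n = 3 pools a group), with 95% intervals of -0.09 to 0.13 and -0.12 to 0.11. These intervals hold for the values as deposited. With arrays centred on their medians the ZT6 difference was 0.25 (adjusted p = 0.026), where the median of all genes was also 0.25. The night minus day difference was 0.05 ± 0.06 in cKO and 0.07 ± 0.06 in control glands, with adjusted p of 0.64 and 0.53. The brightest probe set of an array read 18025 to 20540.0, so these signals lay in the upper part of the range. Mast cells also use Tph1, and the summed signal of 5 mast cell markers was lower in cKO glands at both times. It was 872 to 1618 in cKO against 1861 to 3423 in control pools at ZT20. At ZT6 it was 1028 to 1384 in cKO against 2074 to 2447 in control pools.

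The brightest Ddc probe set, 1426215_at, was also level. Its signal averaged 9453 ± 541 in cKO glands at ZT20, 9859 ± 429.6 in cKO glands at ZT6, 9765 ± 852 in control glands at ZT20 and 9666 ± 248 in control glands at ZT6 (SD, n = 3 each). The log2 night minus day difference was -0.06 ± 0.07 in cKO and 0.01 ± 0.07 in control glands, and the cKO minus control difference was 0.03 ± 0.07 at ZT6 and -0.04 ± 0.07 at ZT20. None of these passed the test on the values as deposited. With arrays centred on their medians the ZT6 genotype difference was 0.26 (adjusted p = 0.024), where the median of all genes was 0.25.

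The other Ddc probe set, 1430591_at, behaved differently between day and night. It read 1067, 1031 and 1775 in cKO pools at ZT20, against 3005, 2934 and 2950.0 in cKO pools at ZT6. In control pools it read 1075, 1814 and 1287 at ZT20, against 2589, 2710.3 and 2573 at ZT6. All night pools lay below all day pools in both genotypes. Night and day pools separated in either direction for 23.4% of genes tested in cKO glands and 25.6% in control glands. In a fit over all probe sets the signal fell by 1.23 on the log2 scale in cKO glands (SE 0.18, adjusted p = 7.6e-07) and fell by 0.94 in control glands (SE 0.18, adjusted p = 0.00015), where 10.3% and 8.07% of the probe sets tested were called. As a share of the first probe set's signal in the same pool it was 11.1% to 17.6% at ZT20 and 29.3% to 31.5% at ZT6 in cKO glands, and 11.9% to 19.0% at ZT20 and 26.7% to 27.4% at ZT6 in control glands. The probe sets of Ddc therefore changed unequally, and this contrast was singled out after its values were seen. The change of 1430591_at differed between genotypes by -0.29 ± 0.25, which did not pass the test (adjusted p = 0.79).

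Aanat, the enzyme that sets the night rhythm of the pathway, rose strongly at night in both genotypes. Its signal was 3639, 4189 and 5152 in cKO pools at ZT20, against 832, 536 and 558 in cKO pools at ZT6. In control pools it was 4715, 3549 and 5602 at ZT20, against 387, 608 and 708 at ZT6. No night pool came near a day pool, where 23.4% of genes tested separated in either direction in cKO glands and 25.6% in control glands. The mean was 6.74-fold higher at ZT20 in cKO glands and 8.15-fold higher in control glands. On the log2 scale the rise was 2.74 ± 0.18 in cKO (adjusted p = 6e-29) and 3.01 ± 0.18 in control glands (adjusted p = 5.1e-33), and it kept its call under each alternative setting that was run.

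The rise of Aanat in cKO glands was not shown to differ from that in control glands. The difference was -0.27 ± 0.26 on the log2 scale, with a 95% interval of -0.78 to 0.24 (adjusted p = 0.81). At ZT20 cKO glands averaged 4326 ± 766 and control glands 4622 ± 1029.7 (SD, n = 3 each), and their pools overlapped. At ZT6 the means were 642 ± 165 in cKO and 567 ± 164 in control glands, again with overlap. The cKO pool at ZT20 with the least Neurod1 signal (22.5) had an Aanat signal of 3639, the lowest cKO night pool but above the lowest control night pool, at 3549. With that pool as the only cKO night pool, assumed to vary like the others, the night rise in cKO glands was 2.50 ± 0.25 (adjusted p = 4.8e-11), and the difference between the genotypes was -0.51 ± 0.31 (adjusted p = 0.25).

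Gch1, which makes the pterin cofactor of tryptophan hydroxylase, fell at night. Probe set 1420499_at read 3755, 4263 and 5158 in cKO pools at ZT20, against 6393, 6911 and 5892 in cKO pools at ZT6. In control pools it read 4261, 5189.7 and 5226 at ZT20, against 6193, 6372 and 6144 at ZT6. Night pools lay below day pools without overlap in both genotypes, a separation in either direction that 23.4% of genes tested gave in cKO glands and 25.6% in control glands. The log2 change was -0.55 ± 0.10 in cKO (adjusted p = 1.7e-05) and -0.36 ± 0.10 in control glands (adjusted p = 0.013), and the difference between the genotypes was -0.20 ± 0.15, with an interval of -0.48 to 0.09. With cKO pool 1 alone at ZT20 the cKO change was -0.76 ± 0.12 (adjusted p = 9.5e-06) and that difference was -0.41 ± 0.15, which did not pass the test (adjusted p = 0.096).

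The other Gch1 probe set, 1429692_s_at, fell by 0.47 in cKO glands (SE 0.11, adjusted p = 0.0039 in the probe set fit). In control glands its change was -0.27 ± 0.11 and did not pass the test (adjusted p = 0.14). The call for Gch1 in control glands was lost without control pool 1 of ZT20 (-0.26, adjusted p = 0.15) and, by a small margin, without control pool 1 or pool 2 of ZT6 (0.056 and 0.054). It was also lost without the variance trend (adjusted p = 0.18) and without the filter on low values (0.084), while the call in cKO glands was kept throughout.

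Qdpr, which recycles the cofactor, differed little between groups of one tissue. Its main probe set averaged 5422 ± 528 in cKO glands at ZT20, 4881 ± 236 in cKO glands at ZT6, 5489 ± 407 in control glands at ZT20 and 4876 ± 201 in control glands at ZT6. The night minus day differences, 0.15 ± 0.10 in cKO and 0.17 ± 0.10 in control glands, did not pass the test. In control glands the night pools lay above the day pools without overlap, where 25.6% of genes tested separated in either direction. In cKO glands the night value passed under quantile normalisation (0.23, adjusted p = 0.013) and trimmed-mean scaling (0.27, adjusted p = 0.02). The other probe set, 1437993_x_at, changed by 0.03 ± 0.07 and 0.05 ± 0.07.

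Maob was the only one of the enzymes called between cKO and control glands, and it was called at ZT6. At ZT6 its signal was 1665, 2011 and 1655 in cKO pools, against 905, 1354 and 1054 in control pools. The groups did not overlap, as for 15.7% of genes tested, and the mean was 1.61-fold higher in cKO glands. The log2 difference was 0.69 ± 0.18 (95% interval 0.34 to 1.04, adjusted p = 0.012). At ZT20 it was 1353, 1864 and 1785 in cKO pools against 1648, 1678 and 1649 in control pools, a difference of -0.01 ± 0.18.

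Seen by time of day, Maob rose at night in control glands, by 0.60 ± 0.18 (adjusted p = 0.016). In cKO glands the night minus day difference was -0.10 ± 0.18. The difference between these night changes was -0.70 ± 0.25, with an interval of -1.19 to -0.20, and did not pass the test over all genes (adjusted p = 0.38). Without the 2 cKO night pools that kept Neurod1 signal it was -0.98 ± 0.27 (adjusted p = 0.034), with a single pool left in that group, which was assumed to vary like the others.

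The Maob calls rested on few pools. At ZT6 the cKO call was lost without control pool 1 (0.56, adjusted p = 0.18), control pool 3 (0.67, 0.076) or cKO pool 2 (0.60, 0.16), without the variance trend (0.11) and without the filter on low values (0.088). The night call in control glands was lost without control pool 1 of ZT6 (0.47, adjusted p = 0.16), pool 3 of ZT6 (0.066) or pool 3 of ZT20 (0.052), and without pool 3 of both ZT6 groups (0.58, 0.091).

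Markers of the choroid plexus, a tissue next to the gland, moved in the same direction as Maob by day. At ZT6 the summed signal of 6 markers was 32068, 35448 and 30988 in cKO pools, against 22536, 28711 and 24410 in control pools. Of the 6 markers 4 were called higher, where 0.737% of genes tested were called higher. At ZT20 the sums overlapped, at 25791, 33275 and 26151 in cKO pools and 29371, 31723 and 20805 in control pools. None of these markers was at 0 in any group. Markers of neutrophils and marrow moved the other way. Their summed signal at ZT6 was 2786, 2876 and 2448 in cKO pools, against 11446, 5975 and 11433 in control pools. All 4 were called lower, where 1.2% of genes tested were called lower. At ZT20 the sums overlapped, at 3062, 7383 and 2926 in cKO pools and 1714, 6375 and 5685 in control pools. In control glands all 4 were called lower at night (3.23% of genes tested), where Maob was called higher. The summed signal of the mast cell markers given beside Tph1 was also lower in cKO glands. The part of these cell types in the Maob result was not tested.

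**Figure D2:**
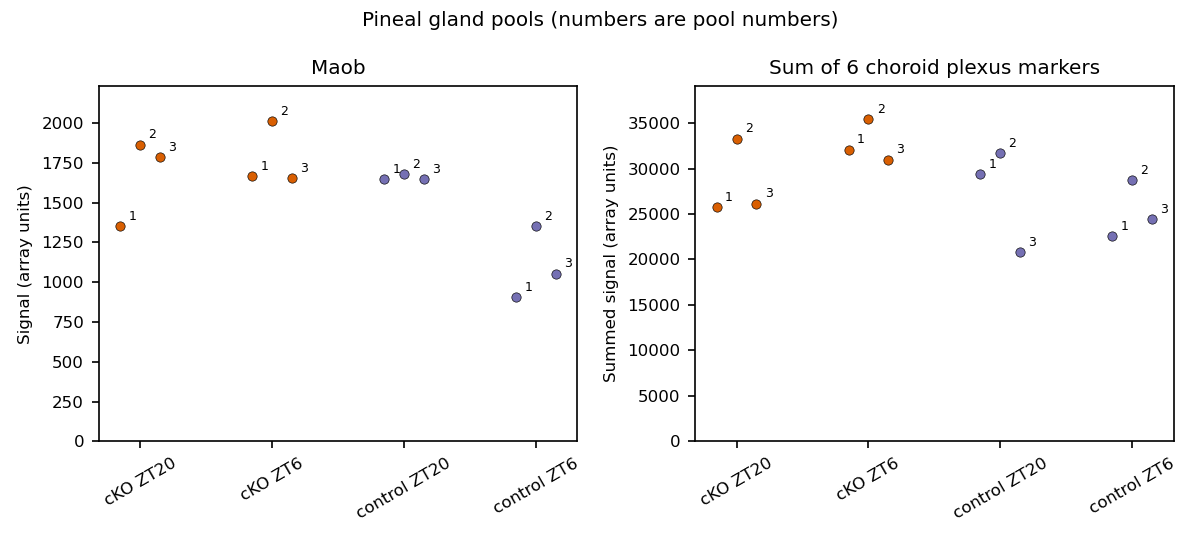
Maob signal (left) and the summed signal of 6 choroid plexus markers (right) in each pineal pool, in array units on linear axes from 0, numbered by pool. At ZT6 all 3 cKO pools lie above all 3 control pools in both panels; at ZT20 the groups overlap.

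Maoa differed little between the pineal groups. Its main probe set averaged 529 ± 70.2 in cKO glands at ZT20, 495 ± 55.2 in cKO glands at ZT6, 596 ± 63.5 in control glands at ZT20 and 494 ± 51.1 in control glands at ZT6. No comparison of Maoa within the gland passed the test, with log2 differences between -0.17 and 0.26. The dimmer probe set, 1442676_at, spanned 121 to 217 over the gland and gave no call in these day-night comparisons either.

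Counted together, 2 of the 7 enzymes were called between night and day in cKO glands (Aanat higher, Gch1 lower), where 11.5% of 11936 genes tested were called. In control glands 3 of 7 were called (Aanat and Maob higher, Gch1 lower), against 8.54% of genes. The median log2 change of the 7 was 0.05 in cKO and 0.17 in control glands, beside -0.15 and 0.02 over all genes tested. Between cKO and control glands 1 of 7 was called at ZT6 (1.94% of genes), 0 of 7 at ZT20 (1.02%) and 0 of 7 averaged over both times (3.17%). Of those 7 averaged values, Maob had an unadjusted p of 0.0068 and none of the others was under 0.05. The median difference of the 7 was -0.01, beside -0.06 over all genes. The ZT20 and averaged counts include cKO pools 2 and 3 of ZT20, which kept 52.4% and 26.5% of the control mean of Neurod1. With cKO pool 1 alone at ZT20, the ZT20 difference was -0.37 for Gch1, -0.32 for Aanat, -0.29 for Maob and -0.23 for Maoa. It was -0.11 for Ddc, -0.08 for Qdpr and 0.01 for Tph1. None of the 7 was called for a night change that differed between genotypes (0.36% of genes), and there Maob alone had an unadjusted p under 0.05.

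The number of enzymes called between cKO and control glands depended on the scale of the arrays. With arrays centred on their medians, 6 of the 7 were called higher in cKO glands averaged over both times, by 0.20 to 0.61 on the log2 scale, but the median of all genes moved to 0.20 as well and 43.4% of genes were called. Ddc (0.26), Gch1 (0.20) and Qdpr (0.25) changed sign to become called under that centring. At ZT6 alone it also made Tph1 (0.25), Ddc (0.26), Gch1 (0.26) and Qdpr (0.23) called higher. There the median of all genes was 0.25 and 34.9% of genes were called. Under quantile normalisation and under trimmed-mean scaling only Maob was called, at 0.41 with adjusted p of 0.023 and 0.016.

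**Figure D3:**
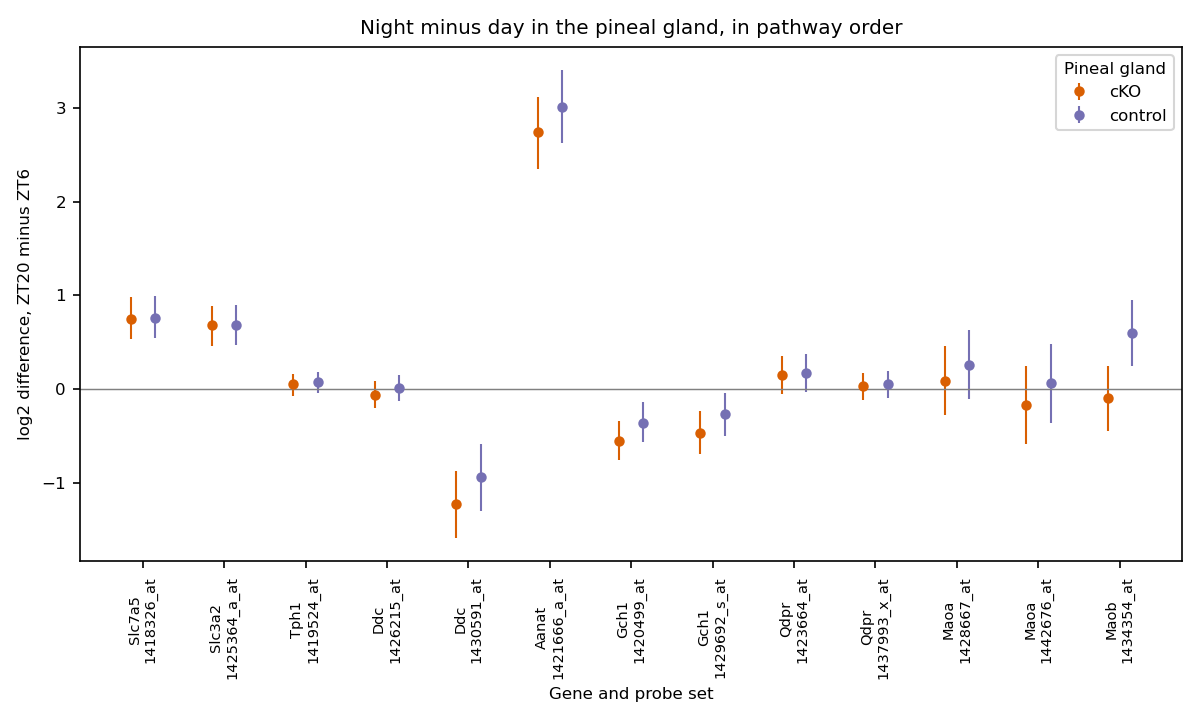
Night minus day difference (log2, ZT20 minus ZT6) in the pineal gland for the tryptophan carrier subunits Slc7a5 and Slc3a2 and for each probe set of the enzymes, in cKO and control glands. Points are limma estimates and bars 95% intervals, n = 3 pools a group; Aanat lies near 3, one Ddc probe set and both Gch1 probe sets lie below 0, and Maob is above 0 in control glands only.

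Of 44 related genes listed with the enzymes, 37 were named on the array and 27 passed the filter in the pineal gland. The night brought up the subunits of the large neutral amino acid carrier that takes up tryptophan. Slc7a5 read 5000.1, 5921 and 6818 in cKO pools at ZT20, against 3581, 3367 and 3488 in cKO pools at ZT6, and 5991, 5395 and 6953 in control pools at ZT20, against 3451, 3562 and 3707 in control pools at ZT6. Its partner Slc3a2 averaged 6611 ± 556 at ZT20 and 4141 ± 575 at ZT6 in cKO glands, and 6691 ± 787 at ZT20 and 4154 ± 355 at ZT6 in control glands. No night pool of either gene reached down to a day pool, where 23.4% of genes tested separated in either direction in cKO glands and 25.6% in control glands. The rises were 0.75 ± 0.11 and 0.68 ± 0.10 in cKO (adjusted p = 4.3e-08 and 1.1e-07) and 0.76 ± 0.11 and 0.68 ± 0.10 in control glands (adjusted p = 2.4e-08 and 9.2e-08), and they held under all alternatives.

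Other list members crossed the threshold narrowly at night. In control glands Pdxk, which activates vitamin B6 for Ddc, rose by 0.44 ± 0.15 (adjusted p = 0.046), and Pts, the second enzyme of tetrahydrobiopterin synthesis, fell by 0.55 (SE 0.19, adjusted p = 0.048). In cKO glands the amino acid carrier Slc7a8 fell by 0.60 (SE 0.20, adjusted p = 0.029), and Htr2c fell by 0.56 (SE 0.18, adjusted p = 0.024). In all, 2 of 27 were called higher and 2 lower in cKO glands, and 3 higher and 1 lower in control glands, where 11.5% of all genes were called in cKO and 8.54% in control glands. The median changes of the 27 were -0.08 in cKO and 0.09 in control glands, beside -0.15 and 0.02 for all genes.

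Between genotypes 1 of the 27 was called at ZT6 (1.94% of all genes), 0 at ZT20 (1.02%) and 1 in the average (3.17%). The gene was Htr2c in both, a serotonin receptor abundant in choroid plexus, at 2820.3, 3385 and 3108 in cKO pools against 1332, 2425 and 1666 in control pools at ZT6. It was higher by 0.81 ± 0.18 (adjusted p = 0.002) and moved with the same choroid plexus markers as Maob. Its call was lost under quantile normalisation (adjusted p = 0.17), trimmed-mean scaling (0.16), without the filter (0.27), without the variance trend (0.41) and without control pool 1 of ZT6 (0.62 on the log2 scale, 0.26).

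In the retina Tph1, Ddc, Aanat and Gch1 gave low signals. Aanat read 44.5 to 80.6 in cKO retinas at ZT20, 41.7 to 57.0 in cKO retinas at ZT6, 25.2 to 48.1 in control retinas at ZT20 and 40.7 to 56.6 in control retinas at ZT6, below the array median on all 12 retinal arrays. Gch1 read 52.4 to 70.4 in cKO retinas at ZT20, 27.6 to 64.8 in cKO retinas at ZT6, 12.6 to 31.6 in control retinas at ZT20 and 16.9 to 29.3 in control retinas at ZT6, also below the median on all 12. Neither passed the filter, so neither was tested within the retina. Tph1 spanned 57.9 to 351 and the main Ddc probe set 65.5 to 208. Both passed the filter, though they exceeded the array median on only some retinal arrays.

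Maoa was higher in cKO than in control retinas at both times, and was called at ZT6 and in the average. It read 347, 472 and 442 in cKO pools at ZT6, against 299, 247 and 256 in control pools, and 465, 372 and 373 in cKO pools at ZT20, against 323, 245 and 316 in control pools. The pools did not overlap at either time, where 38.4% of genes tested separated at ZT6 and 22% at ZT20. The log2 difference was 0.62 ± 0.20 at ZT6 (adjusted p = 0.036), 0.43 ± 0.20 at ZT20 (adjusted p = 0.25) and 0.53 ± 0.14 averaged over both times (adjusted p = 0.011). It was not shown to differ between the times (-0.18 ± 0.28, adjusted p = 0.89). Without cKO pools 2 and 3 of ZT20, which kept Neurod1 signal, the average was 0.63 ± 0.19 (adjusted p = 0.021).

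The size of the Maoa difference depended on the scale. The median difference of all genes in the retina was 0.29 at ZT6, 0.12 at ZT20 and 0.20 averaged. Under median centring the averaged Maoa value was 0.27 (adjusted p = 0.077), under quantile normalisation 0.27 (adjusted p = 0.062), and under trimmed-mean scaling it remained called. The call at ZT6 was lost under all 3 scalings (0.29 to 0.37), and without control pool 2 (0.56, adjusted p = 0.13), control pool 3 (0.59, 0.088), cKO pool 2 (0.53, 0.13) or cKO pool 3 (0.58, 0.11). The other Maoa probe set averaged 209 ± 40.6 at ZT20 and 204 ± 4.9 at ZT6 in cKO retinas, against 151 ± 8.2 at ZT20 and 187 ± 58.2 at ZT6 in control retinas (SD, n = 3 each). Its pools overlapped at ZT6 but not at ZT20, where 22% of genes tested separated in either direction.

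Markers of other cell types also moved in cKO retinas. The summed signal of 6 microglia and macrophage markers was 2358 to 4271 at ZT20 and 2697 to 4660 at ZT6 in cKO retinas, against 825 to 1260 at ZT20 and 860 to 1090 at ZT6 in control retinas. All 4 tested were called higher in the average, where 27.9% of all genes were called higher. The sum of 5 astrocyte and Müller glia markers was 29654 to 34514 at ZT20 and 30527 to 35073 at ZT6 in cKO retinas, against 25692 to 27890 at ZT20 and 22468 to 25696 at ZT6 in control retinas. The sum of 4 cone markers was lower, at 10524 to 13241 at ZT20 and 12106 to 13692 at ZT6 in cKO retinas, against 15580 to 19240 at ZT20 and 14478 to 17316 at ZT6 in control retinas. Among 4 markers of dopaminergic amacrine cells and sympathetic fibres the summed signal was 957 to 1280 at ZT20 and 1048 to 1435 at ZT6 in cKO retinas, against 151 to 183 at ZT20 and 170 to 209 at ZT6 in control retinas. The 1 of the 4 that could be tested, the noradrenaline transporter Slc6a2, was higher in the average by 3.73 ± 0.16. It passed the filter through its signal in cKO retinas, so its being called is no finding about it. The other markers of that list, Th, Dbh and Slc6a3, did not pass the filter, so the sum is no measure of the cell types named. None of these markers was at 0, and their part in the Maoa result was not tested.

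Of the 5 enzymes tested in the retina, 1 was called between genotypes at ZT6 (24.4% of 11693 genes), 0 at ZT20 (6.51%) and 1 in the average (30.2%), so the share of enzymes called was near the background. The median of the 5 in the average was 0.34, beside 0.20 for all genes. At ZT20 Maoa alone of the 5 had an unadjusted p under 0.05. Maob averaged 205 ± 19.5 at ZT20 and 168 ± 33.5 at ZT6 in cKO retinas, against 152 ± 14.3 at ZT20 and 138 ± 39.7 at ZT6 in control retinas, and did not pass the test. Qdpr averaged 2643 ± 157 at ZT20 and 2715 ± 264 at ZT6 in cKO retinas, against 2420.3 ± 258 at ZT20 and 2511 ± 267 at ZT6 in control retinas, a difference of 0.12 ± 0.09 in the average.

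No enzyme was called between night and day in the retina. The counts were 0 of 5 in cKO retinas (0.0513% of genes), 0 of 5 in control retinas (0.137%) and 0 of 5 for the difference between genotypes (0% of genes), and none had an unadjusted p under 0.05. Tph1 in cKO retinas had the largest of these differences, 0.77 ± 0.40, and its interval of -0.08 to 1.62 was wide.

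Averaged over both times, 9 of 24 related genes tested in the retina were called higher in cKO and 0 lower, where 27.9% of all genes were called higher, and their median was 0.22 beside 0.20 for all genes, so the list as a whole lay close to the background. The largest were Cyp1b1, a cytochrome that can oxidise melatonin, at 1.10 ± 0.14, Tph2, the tryptophan hydroxylase of neurons, at 0.94 ± 0.16, and Slc7a8 at 0.90 ± 0.14, followed by the dehydrogenases Aldh1a1 (0.73 ± 0.17) and Aldh2 (0.70 ± 0.15) and by Slc3a2 (0.51 ± 0.10). Tph2 read 652, 398 and 551 in cKO retinas at ZT20 and 381, 587 and 527 at ZT6, against 303, 267 and 268 at ZT20 and 253, 188 and 279 at ZT6 in control retinas. The pools of Tph2 did not overlap at either time, where 38.4% of genes tested separated in either direction at ZT6 and 22% at ZT20. Its averaged difference stayed called under median centring (0.68), quantile normalisation (0.70) and trimmed-mean scaling (0.76).

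**Figure D4:**
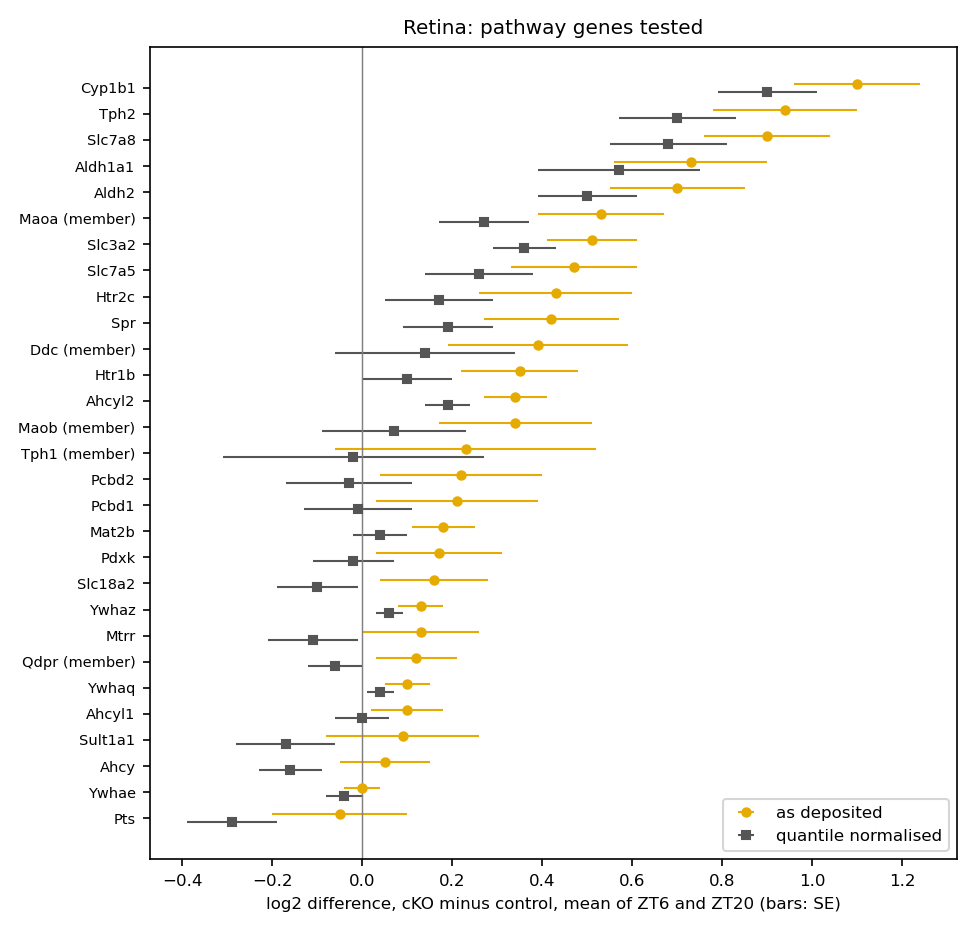
cKO minus control difference in the retina (log2, mean of ZT6 and ZT20) for the 5 enzymes and 24 related genes tested, as deposited and after quantile normalisation. Points are limma estimates and bars their SE, n = 3 pools a group; most as-deposited points lie right of 0, and Cyp1b1, Tph2 and Slc7a8 lie farthest right under either scaling.

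Set against the retina, all 7 enzymes were called higher in the pineal gland of control mice averaged over both times, where 51.3% of 12881 genes were called higher and 74.4% in either direction. Aanat and Gch1 entered this test through their pineal signal, so their being called is no finding about them. Tph1 and Ddc passed the filter in the retina as well, but exceeded the median on only some retinal arrays. The log2 differences were 7.12 ± 0.15 for Gch1, 6.48 ± 0.21 for Tph1, 6.44 ± 0.14 for Ddc, 4.79 ± 0.17 for Aanat, 3.10 ± 0.14 for Maob, 1.07 ± 0.08 for Qdpr and 0.92 ± 0.13 for Maoa. These are differences within a probe set and not an order of the genes' levels. The retinal pools of Maob spanned 111 to 227 and the pineal pools 905 to 2011, with no overlap, while the pineal and retinal pools of Maoa overlapped in cKO mice at ZT6. The dimmer Maoa probe set gave no common direction between the tissues. In control mice it read 172 to 217 in glands and 142 to 159 in retinas at ZT20, without overlap, and 173 to 199.8 in glands and 139 to 252 in retinas at ZT6, with overlap. In cKO mice at ZT6 its mean was lower in glands (175 ± 8.1) than in retinas (204 ± 4.9), again without overlap, and at ZT20 the pools overlapped.

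Of 29 related genes tested between the tissues, 22 were called higher in the gland and 5 lower, where 51.3% of all genes were called higher and 23.1% lower. Of these 29, 22 passed the filter in both tissues, and 17 of those 22 were called higher and 3 lower. No share over all genes that passed in both tissues was computed, so this count has no like background. The cofactor genes Pts, Spr, Pcbd1 and Pcbd2, which passed in both, were called higher, with the pterin dehydratase Pcbd1 at 2.39 ± 0.14. The Gch1 regulator Gchfr (2.39 ± 0.17) passed through its pineal signal only, and Tph2 (-2.98 ± 0.17) through its retinal signal only, so their being called is no finding about them.

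The night change of Aanat differed between the tissues. In control mice it was larger in the pineal gland by 3.22 ± 0.34 (adjusted p = 9.4e-07), and none of the other 6 enzymes was called, where 1.06% of genes were called. The cKO minus control difference was lower in the gland than in the retina for Gch1 (-0.85 ± 0.21, adjusted p = 0.0052) and Maoa (-0.61 ± 0.18, adjusted p = 0.016), which makes 2 of 7 where 21.2% of genes were called. The retinal values behind the Aanat and Gch1 contrasts lay below the array median on all 12 retinal arrays and both genes entered through their pineal signal, so these contrasts are descriptions of dim signals. The Gch1 value ranged from -1.19 to -0.33 over the settings tried. The median of all genes for the genotype contrast was -0.27. Under median centring Gch1 was at -0.33 (adjusted p = 0.13) and Maoa at -0.09 (adjusted p = 0.62), while Qdpr (0.39, adjusted p = 0.0049) and Maob (0.53, adjusted p = 0.028) were called higher.

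Across groups of one tissue the levels of each enzyme can be put in order only where groups separate. For Aanat the pineal order was night above day, with cKO and control overlapping at each time, and all 4 retinal groups lay below both. For Gch1 it was day above night in the gland, with the genotypes overlapping at each time. Tph1 in cKO glands and Qdpr in control glands also separated by time, with means 1.03-fold and 1.13-fold higher at night. For Maob the control glands at ZT6 lay lowest of the 4 pineal groups, with 1 pool of 1354 just above the lowest cKO pool at ZT20 (1353).

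The genes whose log2 signal was most like that of an enzyme over all 24 arrays mostly shared its tissue difference. For Tph1 they were 1700042O10Rik (Pearson r = 0.997), Spink4 and Ddc (0.996 each), among 12881 genes. For Ddc they were Tac4, Tc2n and Dlk1, for Aanat Rftn1, Tbc1d1 and Gnpda1, for Gch1 H3c7, Chrnb4 and Lrrc38, for Qdpr Tmem202, Ano10 and Adra2c, for Maoa Tmbim1, Il17rd and Rab13, and for Maob Cald1, Ptges and Bmp7. Over the 12 pineal arrays alone, where day and night set the pattern, Aanat was most like Stc2 (0.989), Lpin2 (0.988), Nlgn2 (0.988), Stard4 (0.987) and Cyth3 (0.987). Tph1, which hardly varied there, reached only 0.915 with Cited1. The arrays of a group share tissue, time and genotype, so these values only describe the series.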

How the data were processed

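The authors deposited 1 linear intensity for each of 45101 probe sets on each array. Per the submitters' processing notes the software was GCOS; how arrays were scaled and which probe sets were called present are not given in the sources used here. Per the labels' protocols, a Qiagen RNeasy Micro kit gave total RNA and NuGEN Ovation kits amplified and labelled it. Groups came from the sample titles, and a pool was 1 replicate. In the platform annotation 932 probe sets had several gene symbols and 9211 had none. There were 64 control sets, some with a symbol. With the controls left out, 34945 probe sets had a single symbol. A gene was represented by its brightest probe set, avoiding sets marked as cross-hybridising (_x_at) where another existed.

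No further normalisation was applied. A constant of 16 signal units was added before log2. A gene was tested if it exceeded the array median on at least 3 arrays of the fit. limma 3.58.1 in R 4.3.3 fitted 1 mean per group, over 12 arrays per tissue or over all 24, with empirical Bayes moderation and a variance trend. P-values were adjusted over all genes tested (Benjamini-Hochberg, threshold 0.05), and called means past it. The same fit was run over probe sets. Tests are two-sided; with 3 pools against 3 an exact permutation test cannot go below 0.1. The spread behind a p-value combined that between a gene's own pools with the trend over all genes. The trend carried 154.4 prior degrees of freedom beside 8 residual ones in the pineal fit. These were 9.1 beside 8 in the retinal fit and 12.9 beside 16 in the fit of both tissues. Pineal SEs, intervals and p-values therefore rest mostly on the trend and less on the pools of the gene itself. The number of arrays limits the precision. Same-numbered pools deviated together (r over 0.1 for every pair) only for cKO and control glands at ZT6, so pool numbers were not used as a block.

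The enzymes, gene lists and tests were chosen with earlier results of these data known. Named were all members, Neurod1, related genes called in a comparison (at most 6 a comparison, by size), and the 3 or 5 genes most like a member. Alternatives tried were median centring, quantile normalisation, trimmed-mean scaling, other added constants (1 and 64), no filter, no variance trend, only the groups compared, a replicate block and leaving out pools. Promoters came from RefSeq (GRCm38.p6). A planned comparison of the enzymes' proteins was not run, and the promoters of Aanat and Maob are not shown.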

Additional observations from a re-analysis of the deposited data

Results flagged for a closer look

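For these 3 results a test of the difference between the tissues was past the threshold. The night change of Aanat was larger in control pineal glands than in control retinas by 3.22 on the log2 scale. The cKO minus control difference was lower in the pineal gland than in the retina for Gch1 (-0.85) and for Maoa (-0.61). The retinal Gch1 and Aanat signals lay below the array median on all 12 retinal arrays, and both genes entered these tests through their pineal signal, so their contrasts rest on retinal values that were not tested within the retina. Groups of 3 pools were not screened for single far-lying pools.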

How the results depend on the processing

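Of 18 calls of single enzymes, 11 kept their side of the threshold in every alternative run. Among them were both Aanat night rises (2.50 to 2.86 in cKO and 2.90 to 3.19 in control glands over settings) and all 7 tissue differences. Aanat and Gch1 entered the contrasts between tissues through their pineal signal, so their being kept there is no finding about them. The causes of the other shifts were not tested. For cKO against control glands at ZT6, 1 enzyme was called as analysed, 5 under median centring, 0 with no filter on low values, 0 with no variance trend, 0 without pool 3 of both ZT6 groups, and 0 to 1 when each pool was left out. Averaged over both times 0 were called as analysed, 6 under median centring, 1 under quantile normalisation, 1 under trimmed-mean scaling, 1 with the replicate block (Maob, 0.34, adjusted p = 0.044), and 0 to 1 with pools left out, the call coming without cKO pool 1 of ZT20 (Maob, 0.41, adjusted p = 0.035). Ddc (-0.01), Gch1 (-0.06) and Qdpr (-0.01) reversed there under median centring, to 0.26, 0.20 and 0.25. For night against day in control glands, 3 were called, and 1 to 3 with pools left out, 1 being without control pool 1 of ZT6. For the genotype difference of the night change 0 were called, and 1 without cKO ZT20 pools 2 and 3. In the retina at ZT6, 1 was called as analysed and 0 under median centring, quantile normalisation, trimmed-mean scaling, no filter, only the groups compared and the replicate block (Maoa, 0.62, adjusted p = 0.069), and 0 to 1 with pools left out. In the retinal average 1 was called, 0 under median centring and quantile normalisation, and 2 with no filter. For the tissue difference of the genotype effect 2 were called and 1 under quantile normalisation, where Maoa was at -0.21 (adjusted p = 0.27). Under median centring 2 were called as well, but these were Qdpr, reversed at 0.39 (adjusted p = 0.0049) against -0.13 as analysed, and Maob (0.53, adjusted p = 0.028), in place of Gch1 and Maoa. The replicate block changed the call of no other enzyme. No array background or detection call was used, so low retinal signals of Aanat and Gch1 carry no lower limit.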
